A study of Mus musculus with 7 samples.

Results

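RNAs of the proteasome were followed across 7 arrays of mouse sperm RNA. The members were the probe sets that the platform annotation gives exactly 1 gene symbol of the families Psma, Psmb, Psmc, Psmd, Psme, Psmf or Psmg. There were 50 such probe sets for 47 genes, among 23493 probe sets with 1 symbol and 33604 in all. Psma5, Psmc2 and Psmg2 had 2 probe sets each. No probe set read Psma4 alone: both that name it also name AY074887, and they were left out.

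Each array held sperm RNA pooled from several males. The single C57BL/6 array held a pool of 5 males. A KDM1A transgene was injected into C57BL/6 zygotes, which gave 2 female founders. Heterozygous males then passed it on through matings with C57BL/6 females over 3 generations. TG3 males carried it and nonTG3 males were littermates without it, with 3 arrays each and 4 males per pool. TG3 and nonTG3 are called the line here, because they share that descent and the C57BL/6 males do not. The promoter that drives the transgene, and whether the line keeps 1 or several insertions, are not stated in those labels. Values are log2 intensities, in which 1 unit is a doubling, and replicates are listed in the order 1, 2, 3. The C57BL/6 value has no replicate. Levels of different probe sets are not compared, since probes differ in response.

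The proteasome is the main protease of the cytosol and nucleus and degrades proteins tagged with ubiquitin. Its barrel-shaped core is built of outer alpha rings, which gate the entrance, and inner beta rings, which hold the catalytic sites. A regulatory particle caps the core: its base contains the ATPases that unfold substrates, and its lid removes ubiquitin. Other caps activate the core without ubiquitin. In the testis, Psma8 takes the place of the alpha subunit Psma7 during meiosis, and the activator Psme4 is known for the breakdown of acetylated histones in spermatids. Transcription has largely ceased in mature sperm, so the RNAs measured there were made earlier in spermatogenesis or come from other cells.

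Promoter windows are shown for the genes with a probe set called in either comparison, Psma6 and Psmc2, and for Psmb5, the subunit with the smallest p between TG3 and nonTG3. They come from the RefSeq table of GRCm38.p6, run 5′ to 3′ and span 250 bases before to 50 after an annotated start. Psma6 and Psmc2 each have a pair of annotated starts, and which one the arrays' RNA used was not measured. Capitals mark CCAAT or its reverse complement ATTGG, the box bound by the factor NF-Y, and TGACNNNGC, the core of the antioxidant response element bound by Nfe2l1 and Nfe2l2. Both strands were searched.
Psma6, chr12:55383972-55384271, plus strand: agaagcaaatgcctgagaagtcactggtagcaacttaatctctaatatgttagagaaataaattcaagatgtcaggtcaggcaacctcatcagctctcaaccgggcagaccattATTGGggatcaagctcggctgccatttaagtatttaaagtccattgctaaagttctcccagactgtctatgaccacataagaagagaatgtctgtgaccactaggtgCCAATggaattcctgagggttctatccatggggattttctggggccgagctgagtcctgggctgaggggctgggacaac
Psma6, chr12:55398575-55398874, plus strand: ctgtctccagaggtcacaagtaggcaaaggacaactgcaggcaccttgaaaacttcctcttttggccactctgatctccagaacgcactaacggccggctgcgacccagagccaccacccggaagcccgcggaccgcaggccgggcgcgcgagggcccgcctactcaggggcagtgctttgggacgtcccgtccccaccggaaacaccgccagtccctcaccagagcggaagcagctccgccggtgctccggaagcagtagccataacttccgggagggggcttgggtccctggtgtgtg
Psmc2, chr5:21785025-21785324, plus strand: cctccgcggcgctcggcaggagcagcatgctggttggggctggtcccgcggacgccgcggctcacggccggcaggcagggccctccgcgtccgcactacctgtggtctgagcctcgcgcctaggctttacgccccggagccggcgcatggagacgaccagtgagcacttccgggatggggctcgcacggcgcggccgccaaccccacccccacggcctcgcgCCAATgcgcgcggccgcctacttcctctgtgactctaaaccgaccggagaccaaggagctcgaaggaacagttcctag
Psmc2, chr5:21786497-21786796, plus strand: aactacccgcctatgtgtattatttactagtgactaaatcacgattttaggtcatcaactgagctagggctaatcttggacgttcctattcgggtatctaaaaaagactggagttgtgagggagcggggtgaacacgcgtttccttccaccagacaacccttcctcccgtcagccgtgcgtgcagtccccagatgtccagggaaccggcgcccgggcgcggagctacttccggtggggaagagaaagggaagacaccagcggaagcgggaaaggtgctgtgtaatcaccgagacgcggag
Psmb5, chr14:54617946-54618245, minus strand: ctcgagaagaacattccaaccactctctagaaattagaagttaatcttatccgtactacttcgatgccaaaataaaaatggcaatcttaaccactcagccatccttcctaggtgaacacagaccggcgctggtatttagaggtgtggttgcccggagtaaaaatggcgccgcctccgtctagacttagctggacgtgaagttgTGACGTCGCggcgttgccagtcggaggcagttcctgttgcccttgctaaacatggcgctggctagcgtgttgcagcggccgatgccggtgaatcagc

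In the first Psma6 window ATTGG lay 136 bases and CCAAT 29 bases before the start, and in the first Psmc2 window CCAAT lay 28 bases before it. The second windows of Psma6 and Psmc2 held neither motif. The Psmb5 window held TGACGTCGC 47 bases before the start. Promoters were found for 39 of the 47 genes. TGACNNNGC was in a window of 6 of these 39, or 15.4%, namely Psmb5, Psmb6, Psmc6, Psmd12, Psmd9 and Psme4, against 14% of all 27025 genes with a window. CCAAT was in 14 of 39, or 35.9%, against 41.1% of all genes, and 5 of the 14 belonged to the 6 alpha ring genes. TGACGTCA, the site of the Creb and Crem family, was in 0 of 39 against 2.03% of all genes; it shares its first 4 letters with TGACNNNGC. These counts describe letters in a window and not binding.

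The labelled cell type was checked against its markers. The 14 probe sets of late spermatid and sperm genes averaged 9.91 on the C57BL/6 array and 9.10 to 9.39 on the line's arrays. Of these 14, 3 were called lower in the line, where 2.85% of all probe sets were, and 2 had higher means there. RNA of other testis cells was also read, and the averages of these lists were higher on the C57BL/6 array. Meiotic genes, 13 probe sets, averaged 6.32 there and 4.49 to 5.12 in the line, with 5 called lower in the line where 2.85% of all probe sets were. Sertoli and Leydig cell genes, 12 probe sets, averaged 4.48 and 2.81 to 3.06, with 6 called lower, and 9 of the 12 had a line mean below 3.52, the lowest median of an array. The other way, 4 of the 12 had a higher mean in the line, among them the Sertoli cell genes Amh and Wt1, for which C57BL/6 was below all 6 line arrays, and Sox9, at 4.25 against a line mean of 4.45. In pooled sperm, fewer cells of a type and less RNA per cell cannot be told apart. Mitochondrially encoded RNAs, 10 probe sets, averaged 11.24 on the C57BL/6 array and 11.44 to 11.55 on TG3 replicates 2 and 3 and nonTG3 replicate 1. On TG3 replicate 1, nonTG3 replicate 2 and nonTG3 replicate 3 they averaged 8.80, 9.98 and 8.91. Kdm1a, the mouse gene of the transgene's demethylase, averaged 5.20 in both TG3 and nonTG3. It read 5.64 on the C57BL/6 array, above all 6 line arrays, and the line differed by -0.44 at a limma adjusted p of 0.250. The labels do not state whether the Kdm1a probe set reads the transgene.

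Against the C57BL/6 array, the line had lower values for much of the proteasome, with medians of -0.53 for the base and -0.33 for the lid of the regulatory particle. Psma6, an alpha ring subunit, and Psmc2, a base ATPase, fell below C57BL/6 with an adjusted p under 0.05, the threshold for a call. These were 2 of 50 probe sets, or 4%, where 2.85% of all probe sets were called lower. None of the 50 was called higher, where 0.17% of all probe sets were. All 10 base and all 8 lid probe sets had lower means in the line, though 8 of 10 and 7 of 8 after a further quantile normalization. The base count was 9 of 10 without TG3 replicate 3. The lid count was 7 of 8 without TG3 replicate 1, alone or together with nonTG3 replicate 3. The inducible and thymic beta subunits, the assembly chaperones and the activators had medians of 0.11, 0.021 and -0.0028. The first was 0.044 without TG3 replicate 1 and 0.052 when nonTG3 replicate 3 was also left out. The second turned to -0.025 without nonTG3 replicate 1, -0.022 after median centring and -0.029 under cyclic loess. The third changed sign without TG3 replicate 3, at 0.023, nonTG3 replicate 2, at 0.017, or nonTG3 replicate 3, at 0.0010, and after a further quantile normalization, at 0.075. No member was called when TG3 replicate 1, TG3 replicate 3 or the pair of arrays with least mitochondrial RNA was left out. Of all 23493 probe sets, 496, 495 and 0 were then called in either direction, against 710 with all 7 arrays.

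**Figure D1:**
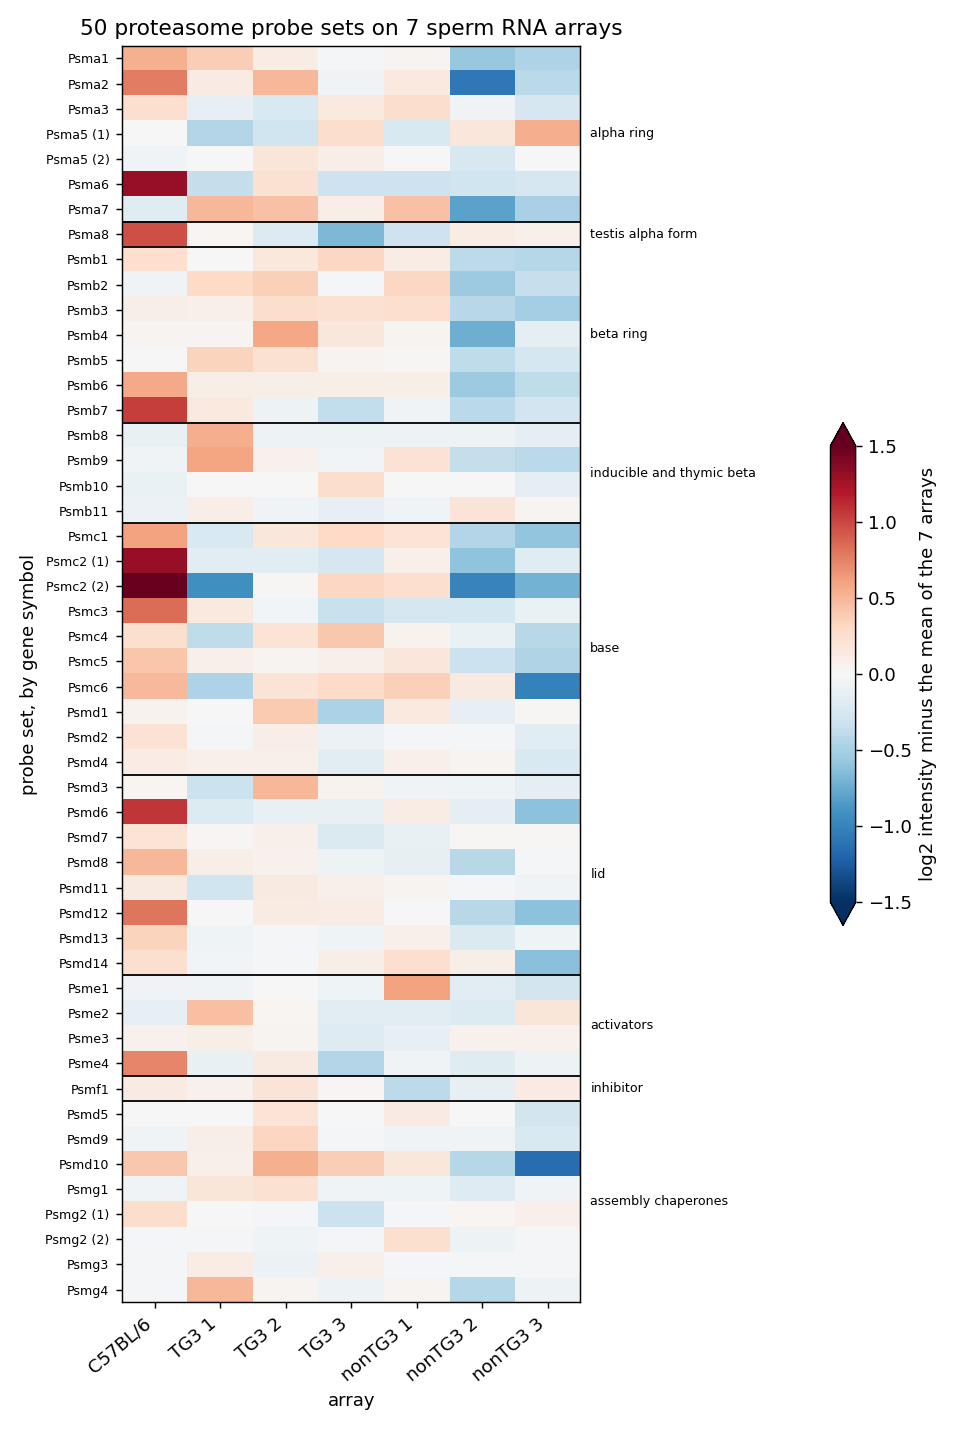
Heat map of the 50 proteasome probe sets (rows, by role) on the 7 arrays (columns). Colour is the log2 intensity minus the mean of the 7 arrays for that probe set, red above and blue below. The C57BL/6 column is red for most base and lid rows, and the columns of nonTG3 replicates 2 and 3 are blue for most ring rows; a number in brackets tells apart the probe sets of 1 gene.

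Psma6 read 8.39 on the C57BL/6 array, 6.73, 7.31 and 6.77 on the TG3 arrays and 6.77, 6.79 and 6.84 on the nonTG3 arrays. The C57BL/6 array lay more than 1 log2 unit above every array of the line, and the TG3 and nonTG3 arrays overlapped. The line mean of 6.87 ± 0.22 (SD, n = 6) was 2.87-fold lower, a difference of -1.52 ± 0.23 (SE) at a limma adjusted p of 0.0314. This call did not hold when any 1 array other than TG3 replicate 2 was left out, with limma adjusted p of 0.0692 and 0.0792 without TG3 replicates 1 and 3, and of 0.0972, 0.108 and 0.0948 when nonTG3 replicates 1, 2 and 3 were left out. The difference then lay between -1.53 and -1.47.

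The other alpha ring subunits did not pass the test. Psma2 read 5.65 on the C57BL/6 array, 5.02, 5.39 and 4.84 in TG3 and 5.03, 3.81 and 4.48 in nonTG3, so the C57BL/6 value was above all others and nonTG3 replicate 2 was lowest. Psma1 ranged from 3.66 to 4.60 in the line against 4.76, and Psma3 from 5.98 to 6.50 against 6.48. One Psma5 probe set read 2.53 on the C57BL/6 array, 2.09, 2.22 and 2.79 in TG3 and 2.30, 2.69 and 3.07 in nonTG3, and the other lay between 2.80 and 3.22 on all arrays. Both Psma5 probe sets stayed below 3.52, the lowest median of an array, a range where no test against background was made. The median difference of the 7 alpha ring probe sets was -0.29, and it was -0.095 after a further quantile normalization and -0.62 for the 5 at or above the median of all probe sets.

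Psma8, the testis form of the alpha ring, read 5.44 on the C57BL/6 array, 4.51, 4.26 and 3.80 in TG3 and 4.16, 4.59 and 4.56 in nonTG3. The C57BL/6 value was the highest and TG3 replicate 3 the lowest, with TG3 and nonTG3 overlapping. The difference of the line from C57BL/6 was -1.12 ± 0.29 (SE), with a limma adjusted p of 0.158. Psma7, the subunit it replaces, read 5.88 on the C57BL/6 array, 6.56, 6.51 and 6.16 in TG3 and 6.50, 5.25 and 5.58 in nonTG3. Here C57BL/6 lay inside the range of the line, and its difference of 0.22 ± 0.45 (SE) had a limma adjusted p of 1.

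The difference Psma7 minus Psma8 within an array carries the unequal response of their probes, so only its change between arrays can be read. It was 0.44 on the C57BL/6 array, 2.06, 2.24 and 2.37 in TG3 and 2.33, 0.67 and 1.02 in nonTG3. The C57BL/6 array was the lowest of the 7, and nonTG3 replicates 2 and 3 were the nearest to it. TG3 averaged 2.22 ± 0.16 (SD, n = 3) and nonTG3 1.34 ± 0.88 (SD, n = 3), a difference that a two-sided exact permutation test put at p = 0.3; with 3 arrays a side it cannot go below 0.1. For 1 array against 6 the smallest is 0.143, so the C57BL/6 value cannot pass such a test.

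Patterns like that of Psma8 were ranked by Pearson's r over the 7 arrays, among probe sets with 1 symbol and without predicted or clone names. Highest in that ranking was Catsper1, a calcium channel subunit of the sperm tail (r = 0.994). Next came Pdha2, the testis form of a pyruvate dehydrogenase subunit (0.988), and Ppp2r1b, a phosphatase scaffold (0.986). Asb9 (0.985) and Ropn1, a protein of the sperm fibrous sheath (0.983), followed. Choosing by r favours genes high on the C57BL/6 array, where Psma8 stood above the line. Catsper1 read 6.01 there and 4.05 to 5.03 in the line, and Ropn1 7.66 and 4.71 to 6.12. The C57BL/6 array was above all 6 arrays of the line for 9 of the 13 meiotic probe sets, though not for Dmc1, Stag3, Piwil1 and Syce2. That is 69.2%, against 14.3% of all probe sets. The part of the meiotic RNAs in the Psma8 difference was not tested.

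In the beta ring, the catalytic subunits differed from one another. Psmb7, which carries the trypsin-like site, read 6.80 on the C57BL/6 array, 5.92, 5.69 and 5.39 in TG3 and 5.71, 5.36 and 5.48 in nonTG3. The C57BL/6 array lay clear of the line, with a difference of -1.21 ± 0.22 (SE) and a limma adjusted p of 0.0583, just outside the threshold. Psmb6, with the caspase-like site, read 5.43 on the C57BL/6 array, 4.95, 4.94 and 4.94 in TG3 and 4.94, 4.31 and 4.48 in nonTG3. C57BL/6 was again above every array of the line, but the difference of -0.66 ± 0.23 (SE) had a limma adjusted p of 0.298. Psmb5, with the chymotrypsin-like site, read 6.47 on the C57BL/6 array, inside the line's range of 6.08 to 6.80, and differed by -0.01 ± 0.19 (SE).

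The noncatalytic beta subunits Psmb1, Psmb2, Psmb3 and Psmb4 also had the C57BL/6 value inside the range of the line, with differences from -0.29 for Psmb1 to 0.06 for Psmb2. The median of the 7 beta ring probe sets was -0.11, with 6 lower in the line, or 4 after a further quantile normalization. It was -0.23 without nonTG3 replicate 1 and -0.058 without nonTG3 replicate 2. Leaving out the pair of arrays with least mitochondrial RNA, TG3 replicate 1 and nonTG3 replicate 3, gave -0.030.

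The inducible forms replace the catalytic subunits in immune cells and after interferon. Psmb8 read 3.65 on the C57BL/6 array, 4.31, 3.69 and 3.69 in TG3 and 3.69, 3.69 and 3.61 in nonTG3, so that TG3 replicate 1 stood above 6 nearly equal values. Psmb9 read 3.55 on the C57BL/6 array, 4.20, 3.67 and 3.56 in TG3 and 3.82, 3.24 and 3.20 in nonTG3. Psmb10 read 4.22 on the C57BL/6 array, 4.31, 4.31 and 4.59 in TG3 and 4.31, 4.31 and 4.18 in nonTG3. None had C57BL/6 outside the range of the line, and with Psmb11, the form of the thymic cortex that lay between 2.87 and 3.19 on all arrays, the 4 differences ran from 0.068 to 0.12. TG3 replicate 1, highest for Psmb8 and Psmb9, also had the highest mean of the 14 leukocyte probe sets, 4.69 where the line otherwise ran from 3.94 to 4.65 and C57BL/6 had 4.28; 3 of the 14 were below the lowest array median on all arrays, the pan-leukocyte marker Ptprc among them. By median deviation the leukocyte genes were highest on TG3 replicate 2, at 0.29 against 0.14 on TG3 replicate 1. The 14 probe sets of fibroblasts, muscle and vessels were highest on TG3 replicate 1, with a mean of 5.72 against 4.52 to 5.45 elsewhere in the line and a median deviation of 0.73. The part of such cells in these values was not tested.

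Psmc2 is one of the ATPases of the base that thread substrates into the core. Its probe set 17435146 read 6.99 on the C57BL/6 array, 5.52, 5.52 and 5.44 in TG3 and 5.77, 5.09 and 5.51 in nonTG3. The line mean of 5.47 ± 0.22 (SD, n = 6) was 2.87-fold lower, a difference of -1.52 ± 0.24 (SE) at a limma adjusted p of 0.0356. This call was lost at limma adjusted p of 0.0980, 0.104 and 0.102 without TG3 replicates 1, 2 and 3 and of 0.103 without nonTG3 replicate 3. The other probe set, 17445895, read 9.22 on the C57BL/6 array, 6.26, 7.20 and 7.49 in TG3 and 7.43, 6.17 and 6.47 in nonTG3, all below C57BL/6. Its difference was larger, at -2.38 ± 0.60 (SE), and its spread wider, with a limma adjusted p of 0.145.

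Psmc3, another base ATPase, read 7.43 on the C57BL/6 array, 6.74, 6.55 and 6.26 in TG3 and 6.35, 6.33 and 6.50 in nonTG3, and all 6 arrays of the line were lower. Its difference of -0.98 ± 0.19 (SE) had a limma adjusted p of 0.0676. Psmc1 differed by -0.70, Psmc6 by -0.57, Psmc5 by -0.48 and Psmc4 by -0.27, and of these only Psmc4 had a line array, TG3 replicate 3 at 5.67, above its C57BL/6 value of 5.50. The scaffold subunits Psmd2 and Psmd1 differed by -0.25 and -0.060. Psmd4, a ubiquitin receptor of the base, read 6.16 on the C57BL/6 array, 6.12, 6.12 and 5.88 in TG3 and 6.12, 6.08 and 5.82 in nonTG3, a difference of -0.14 that was 0.025 after a further quantile normalization. The median of the 10 base probe sets was -0.53, and C57BL/6 was above all 6 line arrays for 8 of them. Without both arrays of lowest mitochondrial RNA it was -0.33.

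In the lid, Psmd6, a scaffold subunit, read 6.05 on the C57BL/6 array, 4.76, 4.86 and 4.86 in TG3 and 5.08, 4.83 and 4.36 in nonTG3. The difference of -1.25 ± 0.25 (SE) had a limma adjusted p of 0.0788. Psmd12, another scaffold subunit, read 5.10 on the C57BL/6 array, 4.28, 4.42 and 4.41 in TG3 and 4.28, 3.88 and 3.68 in nonTG3, with a difference of -0.94 ± 0.22 (SE) and a limma adjusted p of 0.124. C57BL/6 was above the whole line in both. Psmd14, the enzyme that removes ubiquitin chains, read 3.77 on the C57BL/6 array, 3.50, 3.52 and 3.63 in TG3 and 3.79, 3.63 and 2.91 in nonTG3, where replicate 1 exceeded C57BL/6. The median of the 8 lid probe sets was -0.33, and the other differences ran from -0.58 for Psmd8 to -0.033 for Psmd3.

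**Figure D2:**
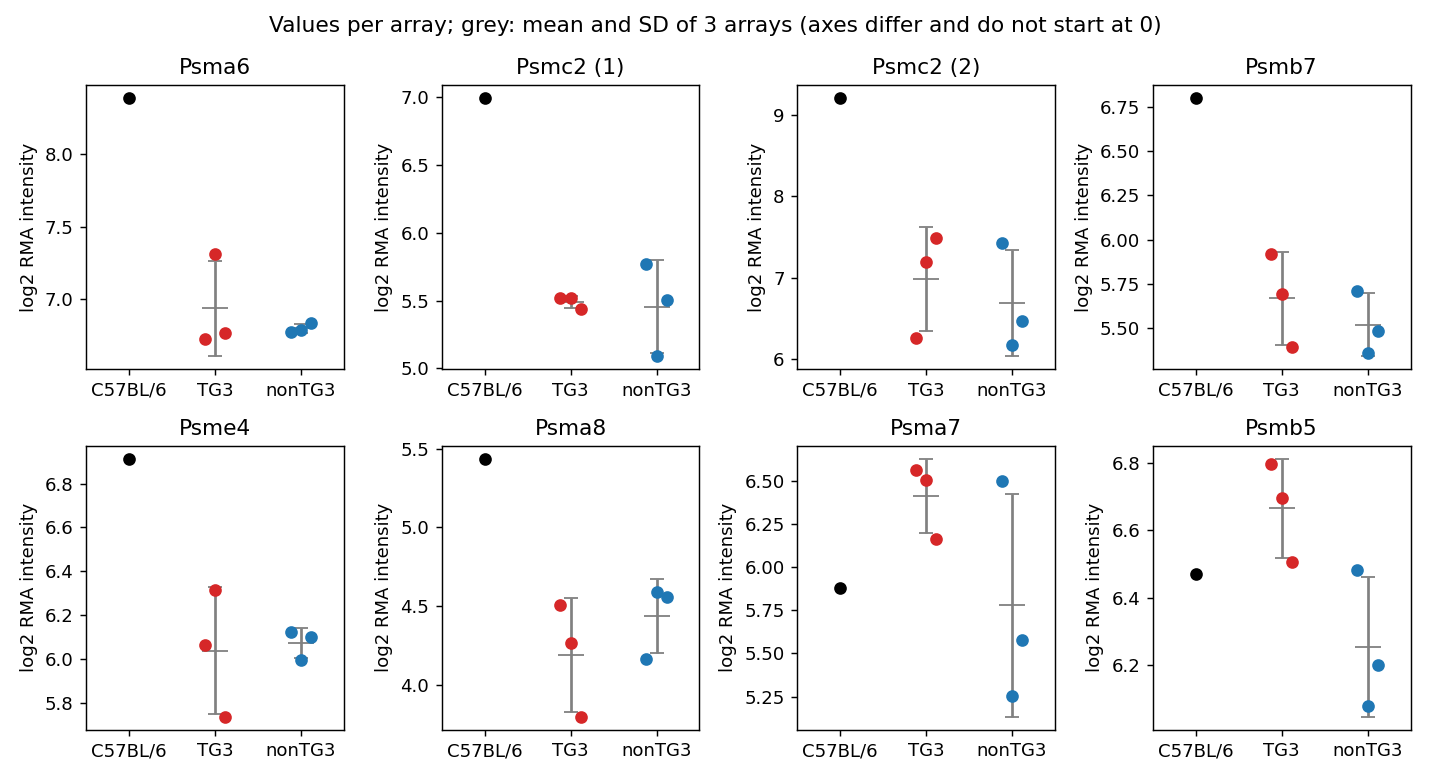
Log2 intensity on each array for 8 probe sets, with the single C57BL/6 array in black, TG3 in red, nonTG3 in blue and the mean and SD of 3 arrays in grey; Psmc2 (1) is probe set 17435146 and Psmc2 (2) is 17445895. C57BL/6 lies above all 6 arrays of the line for Psma6, Psmc2, Psmb7, Psme4 and Psma8, and inside their range for Psma7 and Psmb5. The axes differ and do not start at 0.

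Of the activators, Psme4 read 6.91 on the C57BL/6 array, 6.06, 6.31 and 5.74 in TG3 and 6.12, 5.99 and 6.10 in nonTG3. It was the one activator with C57BL/6 above the whole line, and the line's difference was -0.86 ± 0.21 (SE) at a limma adjusted p of 0.138. Psme1 and Psme2, the subunits of the interferon-induced cap, read 4.93 and 4.28 on the C57BL/6 array. Psme1 read 4.93, 4.98 and 4.91 in TG3 and 5.58, 4.82 and 4.71 in nonTG3, with replicate 1 of nonTG3 apart from the rest. Psme2 read 4.85, 4.43 and 4.25 in TG3 and 4.23, 4.20 and 4.58 in nonTG3. Psme3, the nuclear relative of those subunits, read 5.03 on the C57BL/6 array, 5.07, 5.02 and 4.78 in TG3 and 4.85, 5.03 and 5.03 in nonTG3. In these 3 genes C57BL/6 lay inside the range of the line. Psmf1, which binds the core and inhibits it in the test tube, ranged from 4.90 to 5.48 in the line against 5.42.

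The assembly chaperones help the rings and the base to form and are absent from the finished particle. C57BL/6 was above all 6 line arrays for 1 of their 8 probe sets, or 12.5%, against 14.3% of all probe sets. This one, Psmg2 17351485, read 4.83 on C57BL/6, 4.57, 4.55 and 4.24 in TG3 and 4.53, 4.59 and 4.64 in nonTG3. The second Psmg2 probe set read 4.39 on C57BL/6, inside the line's range of 4.34 to 4.65. The median of the 8 was 0.021 with 2 lower in the line, and 6 were lower after median centring or cyclic loess and 4 after a further quantile normalization.

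Over all 50 members the median difference of the line from C57BL/6 was -0.20, with 35 lower and 15 higher, and over all 23493 probe sets it was 0.037, with 38.9% lower. C57BL/6 was above all 6 arrays of the line for 21 of 50 members, or 42%, against 14.3% of all probe sets. It was below all 6 for 0 of 50 against 18.2%. At an unadjusted p under 0.05, 12 of 50, or 24%, were lower against 7.96% of all, and 0 of 50 were higher against 4.29%. A filter kept the probe sets whose mean was at or above the median of all, which says nothing of relative RNA amounts. It kept 42 members, and C57BL/6 was above the line for 21 of them, or 50%, against 18.2% of all probe sets kept. A further quantile normalization brought the median of the 50 to -0.079, with 31 lower, and leaving out both arrays with least mitochondrial RNA brought it to -0.12. The C57BL/6 array also had the highest averages of the meiotic, Sertoli and Leydig and sperm lists, and their part in these differences was not tested.

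**Figure D3:**
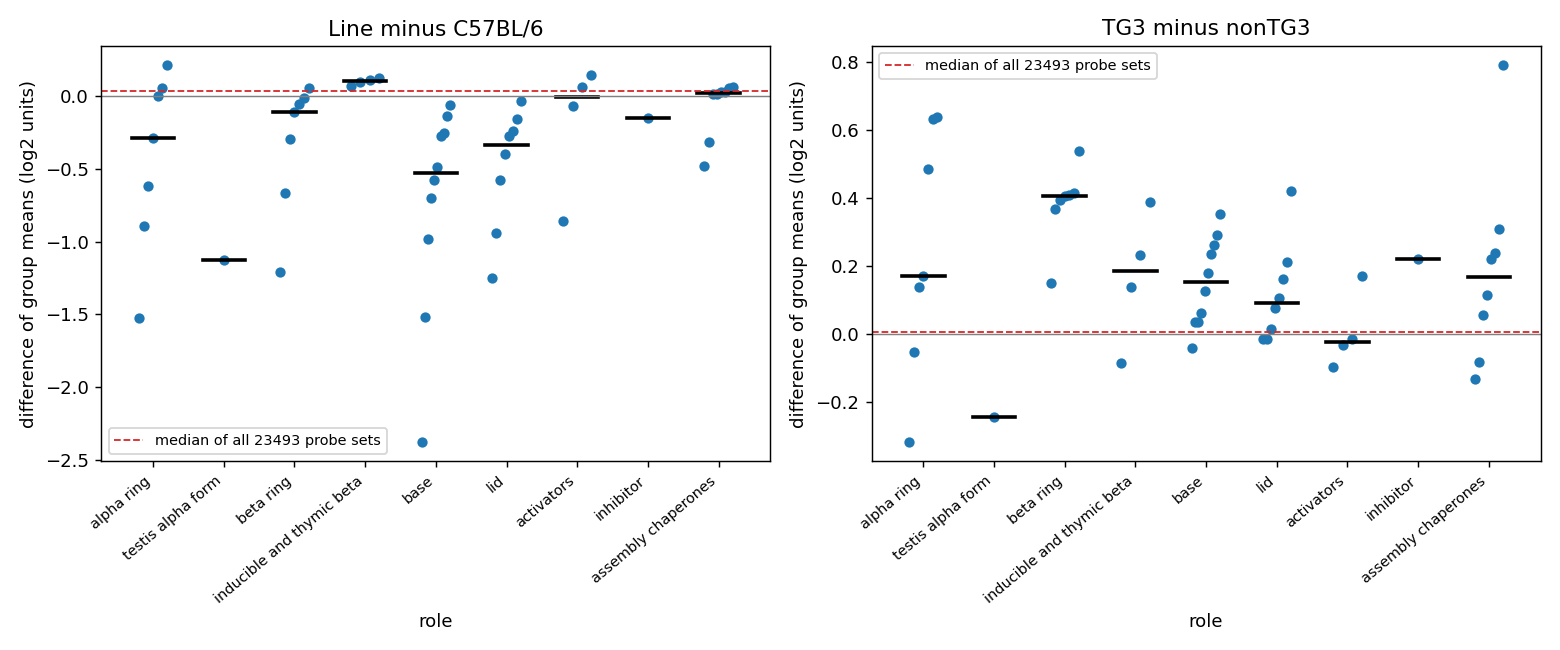
Difference of group means for each proteasome probe set (points) by role, with the median of each role as a black bar and the median of all 23493 probe sets as a dashed red line. On the left, line minus C57BL/6 puts all base and lid points below 0 and all inducible and thymic beta points above it (8 of 10 base and 7 of 8 lid points after a further quantile normalization); on the right, TG3 minus nonTG3 puts all 7 beta ring points above 0.

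Between TG3 and nonTG3, which asks how the transgene's presence relates to sperm RNA among littermates, no proteasome RNA passed the test. limma called 0 of 50 members and 0% of all probe sets, and no adjusted p was below 0.923. At an unadjusted p under 0.05 there were 2 of 50, or 4%, against 2.38% of all. Means were higher in TG3 for 38 of 50 members, or 76%, against 51.0% of all probe sets, with a median of 0.17 against 0.0045. The share was larger for cytosolic ribosomal proteins, at 85 of 104 probe sets, or 81.7%, with a median of 0.30. It was also larger for leukocyte (12 of 14), epididymal (7 of 9) and Sertoli and Leydig (10 of 12) probe sets. All 10 mitochondrially encoded probe sets were higher. The share was smaller for sperm (9 of 14), meiotic (3 of 13) and fibroblast, muscle and vessel (7 of 14) probe sets. The 7 beta ring probe sets had the largest median of the roles with over 1 probe set, 0.41, and all 7 had higher means in TG3, as they did under the other scalings and with any 1 array left out.

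Psmb5 read 6.80, 6.69 and 6.51 in TG3 and 6.48, 6.08 and 6.20 in nonTG3. All TG3 arrays were above all nonTG3 arrays, by a gap of 0.03 between TG3 replicate 3 and nonTG3 replicate 1. The TG3 mean of 6.66 ± 0.15 (SD, n = 3) and the nonTG3 mean of 6.25 ± 0.21 (SD, n = 3) differed by 0.41 ± 0.14 (SE), with an unadjusted limma p of 0.0284 and an adjusted one of 0.923. The assembly chaperone Psmd9, which read 5.06, 5.29 and 4.93 in TG3 and 4.91, 4.91 and 4.73 in nonTG3, was the other member whose groups did not overlap. These were 2 of 50, or 4%, against 2.47% of all probe sets. For 0 of 50, against 1.65% of all, every TG3 array was below every nonTG3 array.

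The 3 members with the largest differences overlapped between the groups, with nonTG3 replicate 1 inside the TG3 range. Psmd10, a chaperone of the base also known as gankyrin, read 4.69, 5.15 and 4.99 in TG3 and 4.78, 4.19 and 3.47 in nonTG3, a difference of 0.79 ± 0.34 (SE) at a limma adjusted p of 0.923. Psma2 and Psma7, given above, differed by 0.64 ± 0.33 and 0.63 ± 0.34 (SE) at the same limma adjusted p, with nonTG3 replicates 2 and 3 below every TG3 array in both. Psmd12, with an unadjusted limma p of 0.0482, had TG3 replicate 1 and nonTG3 replicate 1 at 4.28 each. The largest decreases were -0.32 for Psma5 17401660, below the lowest array median throughout, -0.25 for Psma8 and -0.13 for Psmg2 17351485.

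The other beta ring subunits had the same shape. Psmb4 read 5.69, 6.22 and 5.81 in TG3 and 5.69, 4.91 and 5.50 in nonTG3. Psmb1, Psmb2, Psmb3 and Psmb6 also had their lowest values on nonTG3 replicates 2 and 3, from 3.86 for Psmb3 to 6.40 for Psmb1, while nonTG3 replicate 1 lay between 4.62 and 6.90. Psmb7 was the exception within the ring, with a difference of 0.15 and TG3 replicate 3 at 5.39 among the lowest.

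**Figure D4:**
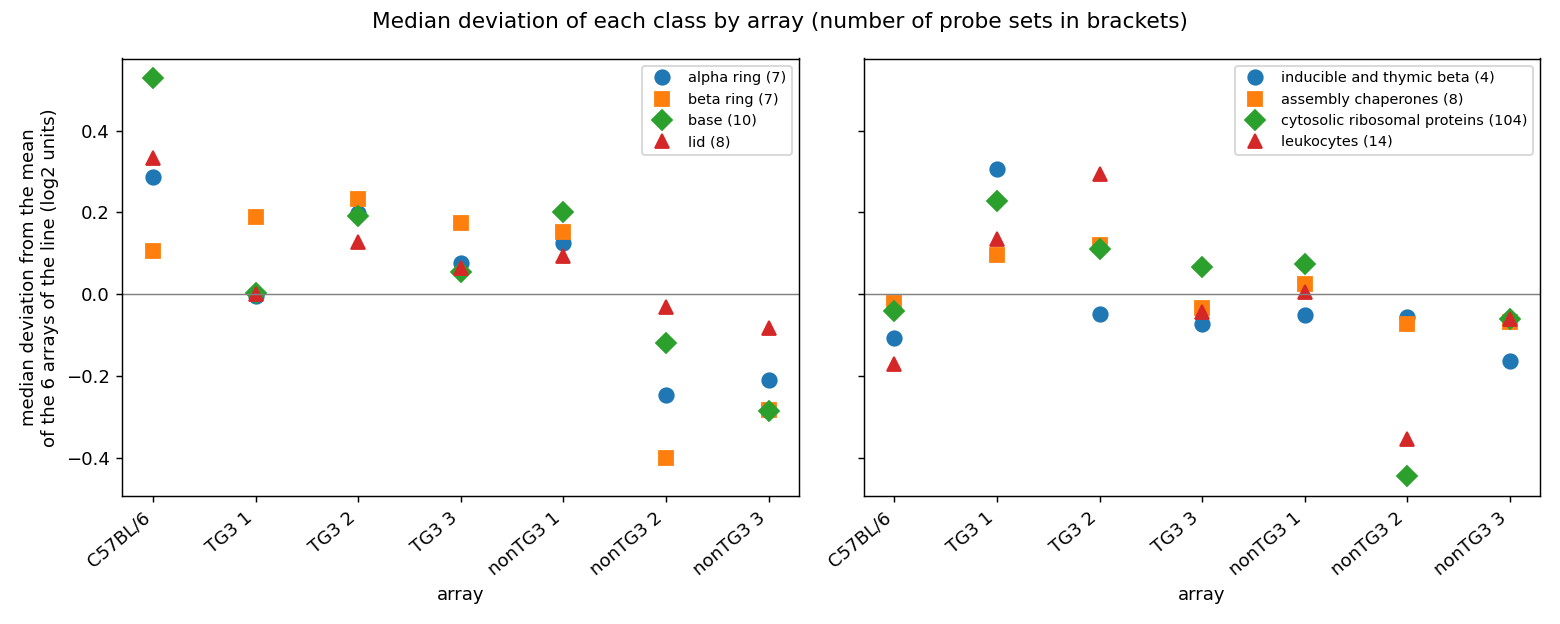
Median deviation of each class from the mean of the line's 6 arrays, in log2 units, for each array; brackets give the number of probe sets. The left panel shows the rings, base and lid, the right panel the inducible beta subunits, assembly chaperones, ribosomal proteins and leukocyte genes. On nonTG3 replicates 2 and 3 the beta ring lies at -0.40 and -0.28, and on nonTG3 replicate 1 at 0.15, beside the 3 TG3 arrays at 0.17 to 0.23.

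Array by array, the rings set nonTG3 replicates 2 and 3 apart from nonTG3 replicate 1. The median deviation of the 14 ring probe sets from the line's mean was 0.14, 0.22 and 0.078 on the TG3 arrays and 0.14, -0.39 and -0.27 on the nonTG3 arrays. Among the 50 members the lowest value in the line fell on nonTG3 replicate 3 for 19 and on nonTG3 replicate 2 for 17, and on nonTG3 replicate 1 for 1. Of all 23493 probe sets, 3827, 3496 and 3197 were lowest on these arrays, in that order. The highest member value fell on TG3 replicate 2 for 18 and on TG3 replicate 1 for 14, against 3484 and 4079 of the 23493. The base was split the same way, at 0.20, -0.12 and -0.29 on the nonTG3 arrays, and was lowest on replicate 3. The lid varied less, between -0.083 and 0.13 over the line, with 0.093, -0.031 and -0.083 on the nonTG3 arrays. The median ring difference between TG3 and nonTG3 was 0.40, and 0.56 without nonTG3 replicate 1, 0.27 without replicate 2 and 0.31 without replicate 3.

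For the base the median difference was 0.15, with 9 of 10 higher in TG3, and it was 0.26 without nonTG3 replicate 1, 0.095 without TG3 replicate 2, 0.090 and 0.081 without nonTG3 replicates 2 and 3, and 0.056 when both arrays of lowest mitochondrial RNA were left out. For the lid it was 0.091, with 6 of 8 higher, and it was 0.21 without nonTG3 replicate 1, 0.012 without nonTG3 replicate 3 and 0.031 without TG3 replicate 2. The activators had a median of -0.025 with 1 of 4 higher, which turned to 0.010 under cyclic loess and 0.094 without TG3 replicate 3. The 8 assembly chaperone probe sets had a median of 0.17 with 6 higher.

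RNAs for cytosolic ribosomal proteins were also low on nonTG3 replicate 2. Their 104 probe sets had a median deviation of 0.23, 0.11 and 0.068 on the TG3 arrays and 0.075, -0.45 and -0.060 on the nonTG3 arrays. The leukocyte probe sets were at -0.35 on nonTG3 replicate 2 and -0.060 on nonTG3 replicate 3. The 9 probe sets of the epididymal epithelium, whose duct the sperm pass through, were low on both, as the rings were. Their median deviation was -0.055, 0.34 and 0.14 on the TG3 arrays and 0.088, -0.27 and -0.52 on the nonTG3 arrays. Their mean level was 4.82 to 5.16 in TG3 and 4.27 to 5.02 in nonTG3, and 3 of the 9 were below the lowest array median on all arrays. Mitochondrially encoded RNA was low on nonTG3 replicates 2 and 3 and on TG3 replicate 1. On TG3 replicate 1 the beta ring was at 0.19, the alpha ring at -0.0034, the base at 0.0032 and the lid at -0.00017. The part of these features of the arrays in the proteasome values was not tested.

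Genes that work beside the proteasome were taken from a list of 39 symbols, of which 26 were measured by 28 probe sets. Against C57BL/6, 3 of the 28 were called lower, where 2.85% of all probe sets were, and 0 higher, where 0.17% were. Ddi1, a shuttle protein with a protease fold, read 4.74 on C57BL/6 and 2.83 ± 0.09 (SD, n = 6) in the line, with a limma adjusted p of 0.00341; the line values were below the lowest array median. Uchl5, a deubiquitinase bound to the base, read 5.36 and 3.88 ± 0.22 (SD, n = 6), with a limma adjusted p of 0.0413. Ube3a, a ubiquitin ligase, read 5.70 and 4.77 ± 0.14 (SD, n = 6) on one probe set, with a limma adjusted p of 0.0327, and 3.78 and 3.45 on its other, at 0.743. Median change over the 28 was -0.070, with 19 lower, or 67.9% against 38.9% of all probe sets. The largest increases were those of Usp14, a deubiquitinase of the base, from 5.38 to 5.79, and of Ubqln4, a shuttle protein, from 5.80 to 6.07, neither called.

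Between TG3 and nonTG3, 0 of the 28 were called, 17 had higher means in TG3, or 60.7% against 51.0% of all probe sets, and the median was 0.061. The largest differences were 0.72 for Pomp, the chaperone that matures the core, and 0.48 for Ubqln2, a shuttle protein, upward, and -0.50 for Usp14 and -0.44 for Uba6, a ubiquitin-activating enzyme, downward. Pomp averaged 5.35 ± 0.69 (SD, n = 3) with the transgene and 4.63 ± 0.66 (SD, n = 3) without it, a spread wider than that of most members. Nfe2l1 is the factor that drives proteasome genes when the particle is inhibited. Its mean was 4.94 ± 0.19 (SD, n = 3) across TG3 against 4.76 ± 0.07 (SD, n = 3) across nonTG3, with a limma adjusted p of 0.923. TG3 replicate 2 read 5.16, while TG3 replicates 1 and 3 and nonTG3 replicate 1 each read 4.83. Nfe2l2 differed by -0.0042.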

How the data were processed

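The authors deposited 1 table of log2 intensities for 33604 probe sets on 7 arrays. Per the submitters' processing notes they used R 3.1.0, oligo, RMA and limma; RMA corrects background, normalizes arrays to one distribution and summarises each probe set. RNA was amplified and labelled with the SensationPlus WT kit, per the labels' protocols. For the genome build, any filter on probe sets and scan dates: not given in the sources used here. RMA gave tied values: among the line's 6 arrays, 9 of 50 members, or 18%, took at most 4 distinct values, against 30.9% of all probe sets. Array medians ran from 3.52 to 3.61. The number of arrays limits the precision.

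Genes were named from the platform annotation, where 1801 probe sets had several symbols and 8310 none. All 50 members matched the RefSeq table by Entrez identifier, with 0 symbols changed. With limma 3.58.1 in R 4.3.3, a model of group means over all 7 arrays was fitted and moderated by eBayes (4 residual and 1.65 prior degrees of freedom), with Benjamini-Hochberg adjustment over 23493 probe sets; a call needs an adjusted p under 0.05. The line is the mean of the TG3 and nonTG3 means. The lone C57BL/6 array is assumed to vary like the others. Whether pools share males is not in the labels; p-values therefore reflect only how these pools vary. Roles were assigned from general knowledge.

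The members, lists and tests were chosen with earlier results of these data known. Values on every array are given for called members, the 3 largest changes each way in each contrast, Psma7 and Psma8, the catalytic subunits and their inducible forms, activators, Psmd4 and Psmd14. They are also given for further members that were picked after their values were seen (Psmc3, Psmd6, Psmd12, Psmb4 and Psmd9). Scripts were tested on simulated data. Alternatives were a further quantile normalization, median centring, cyclic loess, each array of the line left out, both arrays of lowest mitochondrial RNA left out, other priors, filters and thresholds, and a replicate block. Deviations of TG3 and nonTG3 arrays of the same number correlated across probe sets at -0.45, 0.016 and -0.40. For unlike numbers the correlations ran from -0.28 to 0.55. Such correlations follow the largest differences between arrays, so they cannot decide whether equal numbers pair samples. Figures were drawn with matplotlib 3.10.9.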

Additional observations from a re-analysis of the deposited data

How the results depend on the processing

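Calls against C57BL/6 were few and moved with the choices. The 2 called members became 5 with cyclic loess (Psme4, Psmc3 and Psmb7 added), 5 at an adjusted p under 0.1 (Psmd6, Psmc3 and Psmb7 added), 1 with the highest probe set per gene and 0 without both arrays of least mitochondrial RNA, where the limma adjusted p was 0.185 for Psma6 and 0.229 for Psmc2 17435146. With 1 array of the line left out they were 0 to 2: 0 without TG3 replicate 1 or 3, 1 without TG3 replicate 2 (Psma6), nonTG3 replicate 2 (Psmc2) or nonTG3 replicate 3 (Psmd6), and 2 without nonTG3 replicate 1 (Psmd12 and Psmc2). Calls over all probe sets moved too, from 710 of 23493 to 868 with cyclic loess and 1059 at an adjusted p under 0.1. With the highest probe set per gene they were 712 of 22154. Fewer arrays also cost calls over all probe sets, to between 350 and 496 with 1 array of the line left out and 0 without both arrays. Psmb7 passed at 0.0211 under cyclic loess and at 0.0460 among probe sets at or above the median (limma adjusted p). The median of members against C57BL/6 was -0.20, and -0.079 after a further quantile normalization, the cause of which was not tested; with 1 array left out it ran from -0.22 to -0.16, and without both arrays of least mitochondrial RNA it was -0.12. Between TG3 and nonTG3, 0 members were called under every alternative run, and the median lay between 0.11 and 0.22. The fit with the replicate block called 0 members and gave a median of 0.17; the C57BL/6 array carries no number, so the block was fitted to the line alone. Of 702 alternative values of named members, 659 kept direction and call, 28 uncalled ones turned sign, 11 lost and 4 gained a call, and 0 called ones reversed. Fits that changed only the prior, threshold, filter or block, or left out the C57BL/6 array, keep the same differences, so direction could not turn there. Between TG3 and nonTG3 no call existed to be lost. These counts therefore do not measure stability.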

Other observations

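Probe sets that name a member beside another gene were left out of the counts. The pair shared by Psma4 and AY074887 read 4.59 and 3.33 on the C57BL/6 array and averaged 4.45 ± 0.15 and 3.32 ± 0.45 (SD, n = 6) in the line. The one shared by Psmd1 and Armc9 read 4.58 on C57BL/6 and averaged 4.56 ± 0.14 (SD, n = 6). The probe set that names Psme2 beside a pair of Riken genes read 5.67 on C57BL/6 and averaged 5.76 ± 0.12 (SD, n = 6).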
